A study of Mus musculus with 8 samples.

Results

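The 10 genes described here encode secreted ligands of the bone morphogenetic protein (BMP) and growth and differentiation factor (GDF) family in the mouse liver. They are *Bmp2*, *Bmp4*, *Bmp5*, *Bmp6*, *Bmp7*, *Bmp10*, *Gdf2*, *Gdf6*, *Gdf10* and *Gdf15*. They were chosen by name, as rows of the count table, and make up 10 of its 46517 genes. Their summed level was highest in the stellate cells, where *Gdf2* and *Bmp10* peaked. *Bmp5* and *Gdf10* were spread over stellate and other mesenchymal cells. *Bmp2* and *Bmp6* were endothelial and highest in the sinusoids, *Bmp4* was shared by central vein endothelium and fibroblasts, and *Bmp7* and *Gdf15* were low and scattered among parenchymal, immune and mesenchymal cells.

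BMPs are made as precursors, cleaved, and released as dimers that bind a pair of type I and a pair of type II receptor kinases, which then activate SMAD transcription factors and targets such as the *Id* genes. In the liver, the products of *Bmp2* and *Bmp6*, made by endothelial cells, drive hepatocytes to produce hepcidin, encoded by *Hamp*, the hormone that limits iron entry into blood. The proteins encoded by *Gdf2* and *Bmp10* circulate and act on endothelial cells through the receptor that *Acvrl1* encodes and its co-receptor endoglin, encoded by *Eng*. *Gdf15* encodes a distant relative, a stress-induced hormone whose receptor lies in the hindbrain.

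The data were full-length single-cell transcriptomes (Smart-seq2) of 3491 cells from livers of adult male and female mice. The 8 samples are 4 cell classes, each split into a pool of cells from male and a pool from female mice. The classes are endothelial (655 male and 451 female cells), mesenchymal (998 and 339), immune (255 and 396) and parenchymal, called epithelial in the sample labels, which joins hepatocytes and cholangiocytes (358 and 39). The mice were C57BL6/J or carried 1 or more heterozygous reporter transgenes, *Pdgfrb*-GFP, *Pdgfra*-H2bGFP, *Cspg4*-dsRED, *Acta2*-GFP or *Cldn5*-GFP. Endothelial cells were sorted on CD31, VE-cadherin or *Cldn5*-GFP, cholangiocytes on EPCAM, Kupffer cells on CD68 and mesenchymal cells on the reporters or PDGFRα, whereas hepatocytes were taken without selection. Numbers of cells therefore follow the sorting and not the tissue. Which mouse a cell came from is not among its labels, so each pool counts as 1 sample and the tests measure the spread between the male and the female pool, in which sex, technical differences and the mix of cell types cannot be told apart. The female parenchymal pool held 37 cholangiocytes and 2 hepatocytes and the male pool 157 and 201. Of 339 female mesenchymal cells 4 were hepatic stellate cells (HSC) and 110 arterial smooth muscle cells (artSMC), and of 998 male ones 69 and 127.

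Each cell held between 50042 and 1143895 counts, with a median of 233696. The smallest pool, female parenchymal cells, held 6399550 counts and the largest, male mesenchymal cells, 218419420. All female mesenchymal cells came from 1 of the 22 plates. Each class carried its own marker genes at 10 CPM or more (counts scaled to the same total in every sum of cells), 7 of 7 endothelial, 8 of 8 mesenchymal, 7 of 7 immune, and 6 of 6 hepatocyte and 5 of 5 cholangiocyte markers in the parenchymal class. Cell types and clusters are the authors' own. The clusters were drawn from these same transcriptomes, so a difference in a gene that helped to draw them is partly built in. The authors named the sinusoidal clusters by markers that included *Bmp2*. Intervals and floors below treat cells as independent and cover counting error only. They leave out the spread between mice, pools and plates, so they do not test cell types against each other. Reads without molecular identifiers are not independent molecules either.

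Across the 4 classes the 10 ligands fell into a mesenchymal group of 5, an endothelial pair, 1 gene shared by both classes and 2 weakly expressed genes spread over the classes. The mesenchymal class held 99.8% of all *Bmp10* counts (5387 of 5397), 99.4% of those of *Bmp5* and of *Gdf10*, 99.0% of those of *Gdf6* and 98.8% of those of *Gdf2*. The endothelial class held 90.8% of the *Bmp2* counts and 87.0% of those of *Bmp6*. *Bmp4* was divided between mesenchymal cells (52.7%) and endothelial cells (46.6%). Of the *Bmp7* counts 68.0% lay in parenchymal, 19.1% in mesenchymal and 11.5% in immune cells, and of those of *Gdf15* 46.1% lay in immune, 30.5% in mesenchymal and 23.2% in parenchymal cells. These shares depend on how many cells of each class were sorted. The levels in CPM below do not depend on that number, but those of a class follow the mix of cell types sorted within it.

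**Figure D1:**
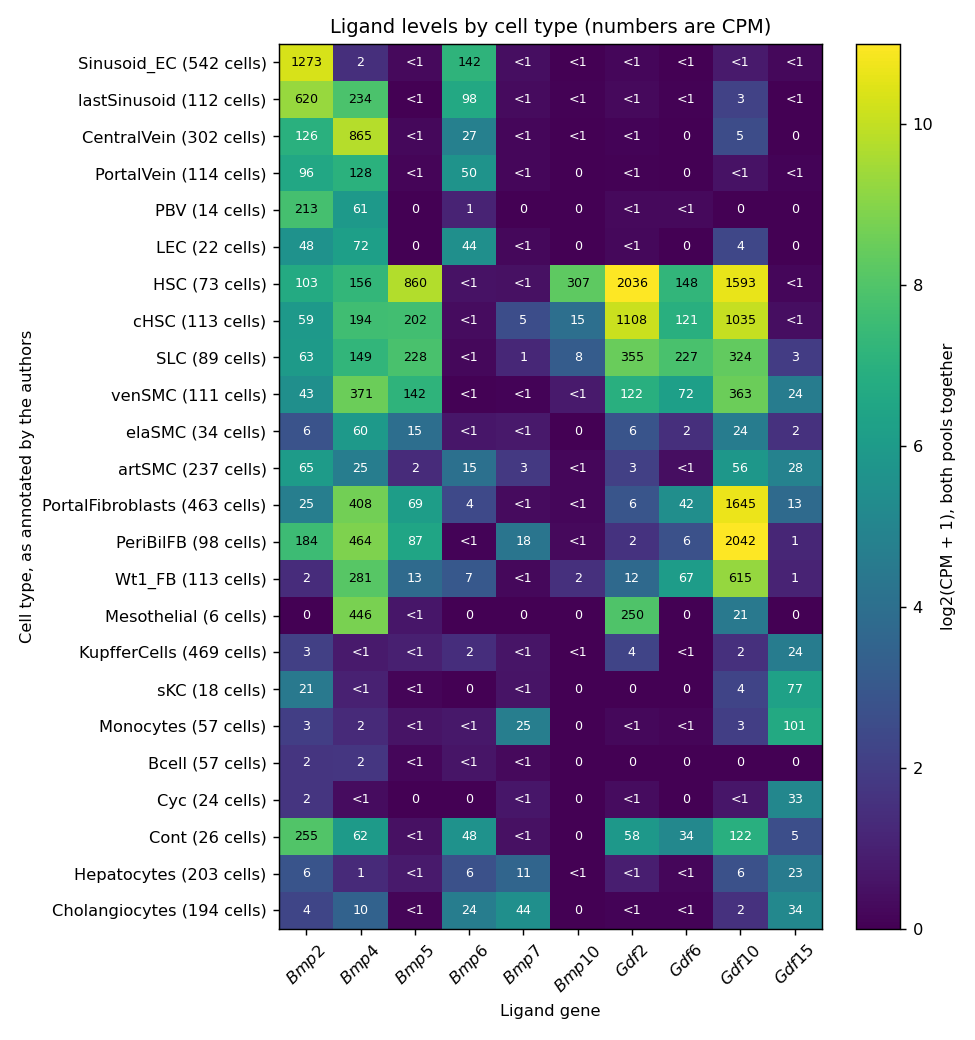
Level of each ligand gene (columns) in each of the 24 cell types named by the authors (rows, with the number of cells), as CPM of the summed cells of both pools. Colour is log2(CPM + 1). Stellate cells (HSC) carry *Gdf2* at 2036, *Gdf10* at 1593, *Bmp5* at 860 and *Bmp10* at 307 CPM, sinusoidal endothelium *Bmp2* at 1273 CPM, and B cells at most 2.31 CPM of any of the 10.

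The heat map of levels by cell type shows how uneven the family was. Divided by the length of their exons (1852 to 5210 bases), so that genes can be set side by side, the 10 ligands summed to 466 CPM per kb in mesenchymal cells and 349 in endothelial cells. The same sum was 33.8 in parenchymal and 25.4 in immune cells. Among cell types it was highest in hepatic stellate cells (HSC), at 1410 CPM per kb. Capsular stellate cells (cHSC) followed at 762, peribiliary fibroblasts at 679 and portal fibroblasts at 544. This order held in both pools, from 1428 to 615 in the male and from 1189 to 380 in the female pool, but that of the classes did not. In the male pool the sum was 572 in mesenchymal and 394 in endothelial cells, and in the female pool 265 and 279, with the 2 mesenchymal pools differing in cell types as given above. The sum in artSMC was 61.3. *Gdf2* alone gave 681 CPM per kb in HSC, *Gdf10* 306 and *Bmp5* 214. In central vein endothelium, *Bmp4* gave 385 of a sum of 428, and in sinusoidal endothelium *Bmp2* gave 358 of 396.

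In the endothelial class, *Bmp2*, which signals to hepatocytes as well as to other cells, stood at 899 CPM in the male and 382 in the female pool. Its levels were 56.8 and 45.3 CPM in mesenchymal cells, 6.85 and 12.8 in immune cells and 4.63 and 6.41 in parenchymal cells. Both endothelial pools lay above all 6 other pools. *Bmp6*, the other ligand that drives hepcidin, stood at 90.6 and 89.2 CPM in endothelial cells, 16.1 and 37.0 in parenchymal, 2.58 and 9.08 in mesenchymal and 0.441 and 3.87 in immune cells. *Bmp4*, a ligand with broad roles in vessels and mesenchyme, stood at 263 and 333 CPM in endothelial cells and at 322 and 201 in mesenchymal cells, and the ranges of those classes overlapped. In immune and parenchymal cells *Bmp4* lay between 0.938 and 7.20 CPM.

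Tested against the mean of the other 3 classes (edgeR's quasi-likelihood F test, with Benjamini-Hochberg adjusted p-values across the whole table, a call needing both an absolute log2 fold change of 1 or more and an adjusted p below 0.05), 5 of the 10 ligands passed in the endothelial class, where 8.28% of 24046 genes did. *Bmp2* was higher by 5.42 on the log2 scale (SE 0.40, edgeR adjusted p = 0.00065), *Bmp4* by 4.19 (SE 0.72, edgeR adjusted p = 0.012) and *Bmp6* by 3.64 (SE 0.72, edgeR adjusted p = 0.021). *Gdf15* (log2 fold change -8.26, edgeR adjusted p = 0.0023) and *Bmp5* (-4.20, edgeR adjusted p = 0.041) were lower. The *Bmp5* call was lost with the pools as a block (edgeR adjusted p = 0.061). In the male and the female pools alone *Bmp2* gave 6.05 and 4.63, *Bmp4* 3.35 and 5.88 and *Bmp6* 4.94 and 3.03.

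The mesenchymal class had calls for 6 of the 10, all higher, against 11.8% of all genes in either direction. *Gdf10* stood at 1303 CPM in the male and 494 in the female pool and *Gdf2* at 262 and 131. *Bmp5* stood at 158 and 36.1, *Gdf6* at 77.8 and 23.1 and *Bmp10* at 23.7 and 1.85. In all 5 genes the male pool, with more of the HSC, was the higher, whereas within stellate clusters m7c and m3c *Gdf2* was higher in the female pool. Outside the class, *Gdf10* reached at most 8.29 CPM in any pool, *Gdf2* 5.87, *Gdf6* 2.57, *Bmp5* 1.07 and *Bmp10* 0.0294, so the ranges did not overlap. The fitted log2 fold changes were 9.73 for *Bmp10* (SE 1.32, edgeR adjusted p = 0.0027), 8.71 for *Gdf2* (SE 1.08, edgeR adjusted p = 0.0018), 8.71 for *Gdf6* (SE 1.55, edgeR adjusted p = 0.0089), 8.33 for *Bmp5* (SE 0.78, edgeR adjusted p = 0.00066), 8.16 for *Gdf10* (SE 0.79, edgeR adjusted p = 0.00072) and 4.09 for *Bmp4* (SE 0.72, edgeR adjusted p = 0.0084). Without 26 immune cells annotated Cont, described below, the value of *Gdf6* was 10.44 (edgeR adjusted p = 0.0012). For *Gdf6* the value was 8.99 with the male pools alone and 12.67 with the female pools alone, and for *Gdf2* 9.18 and 12.39. *Bmp4* gave 4.07 and 4.87. The male pools gave the larger value for *Bmp5* (9.66 and 6.53), *Gdf10* (9.0 and 7.65) and *Bmp10* (10.25 and 9.03).

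Immune cells had 3 calls (13.2% of all genes): *Gdf15* was higher by 3.29 on the log2 scale (SE 0.50, edgeR adjusted p = 0.0046), *Bmp2* lower (-2.40, edgeR adjusted p = 0.017) and *Bmp4* lower (-4.39, edgeR adjusted p = 0.028). Parenchymal cells had 4 (12.4% of all genes): *Bmp7* was higher by 4.19 (SE 0.82, edgeR adjusted p = 0.014) and *Gdf15* by 3.85 (SE 0.51, edgeR adjusted p = 0.0025), *Bmp2* lower (-3.73, edgeR adjusted p = 0.0042) and *Bmp4* lower (-3.89, edgeR adjusted p = 0.042). In sums per plate the immune *Bmp2* value was -1.76 and its call was lost (edgeR adjusted p = 0.083). With the male and the female pools alone *Bmp2* gave -3.25 and -1.75 and *Bmp4* -4.07 and -5.20 in immune cells, and *Bmp4* gave -3.35 and -5.55 and *Gdf15* 2.84 and 4.75 in parenchymal cells, whose female pool was nearly all cholangiocytes. A set of 26 immune cells that the authors annotated as Cont held 7 of 7 endothelial, 7 of 8 mesenchymal and 6 of 6 hepatocyte markers at 10 CPM or more. Without them the parenchymal *Bmp4* value was -3.43 and its call was lost (edgeR adjusted p = 0.10). In immune cells *Bmp2* then stood at -3.64 and *Bmp4* at -5.77, both still called, *Bmp6* passed the test as lower (-4.16, edgeR adjusted p = 0.019), and *Gdf6*, not called in either fit, went from 1.63 to -3.55 (edgeR adjusted p = 0.14). In sums per plate *Gdf6* passed the test as lower (-3.38, edgeR adjusted p = 0.029). *Bmp6* in parenchymal cells did not pass (1.26, SE 0.75, edgeR adjusted p = 0.33).

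**Figure D2:**
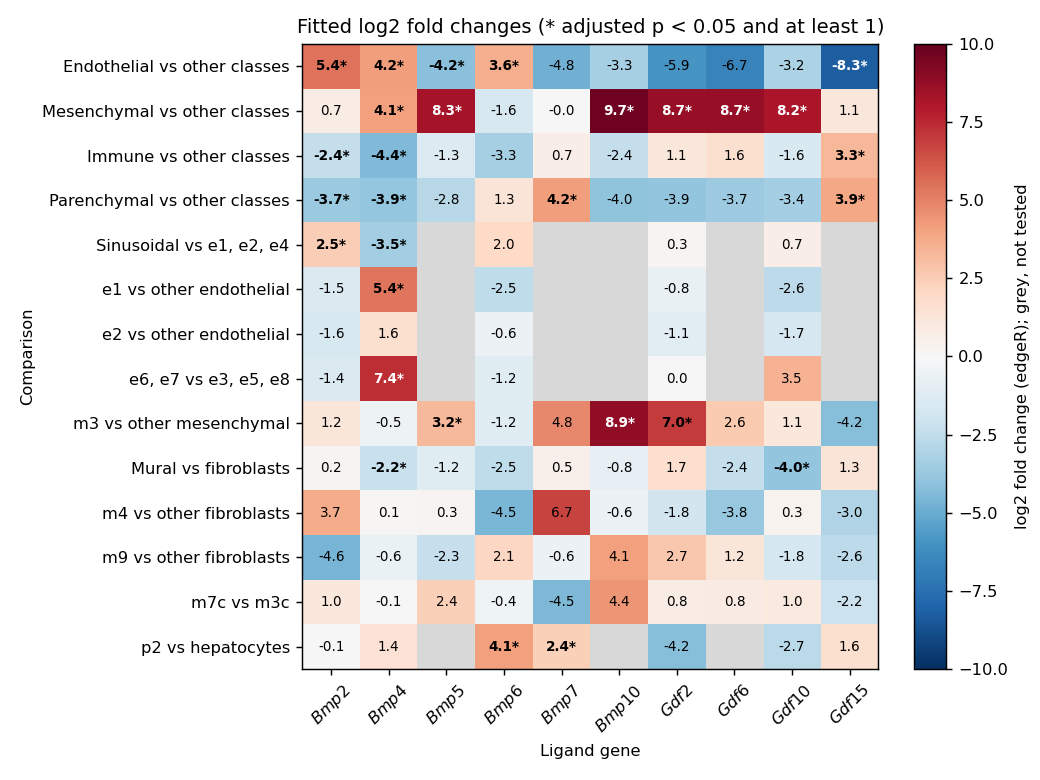
Fitted log2 fold change of each ligand gene (columns) in each of the 14 comparisons (rows). Stars mark the 29 calls (absolute log2 fold change 1 or more, edgeR adjusted p below 0.05), and grey marks genes not tested. *Bmp10* (9.73) and *Gdf2* (8.71) in mesenchymal cells are among the largest positive values, *Gdf15* (-8.26) in endothelial cells the largest negative one among the calls.

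Within the endothelium, *Bmp2* was highest in sinusoidal clusters and *Bmp4* in central vein cluster e1, and e6 held both. By the authors' names, clusters e3, e5 and e8 are sinusoidal, e6 is the last sinusoid next to the central vein, e1 and e7 are central vein, e2 is portal vein and e4 lymphatic. *Bmp2* stood at 892 CPM in the male and 894 in the female pool of e8, at 917 and 589 in e5, at 1585 and 500 in e3 (6 female cells only) and at 469 and 689 in e6. It was lower, at 182 and 97.3 in e7, 131 and 112 in e1, 137 and 87.5 in e2 and 145 and 4.47 in e4. Every pool of e3, e5, e6 and e8 was above every pool of the other 4 clusters, and among those 4 only e6 and e8 did not overlap.

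*Bmp4* stood at 1154 and 1061 CPM in e1, at 548 and 322 in e7 and at 357 and 178 in e6. In the 3 sinusoidal clusters it stood at 1.31 and 3.76 in e3, 2.37 and 3.90 in e5 and 1.41 and 2.15 in e8. Portal vein cluster e2 had 101 and 135, and e4 had 11.2 and 99.4. No *Bmp4* pool of e1, e7 and e6 overlapped one of e3, e5 and e8, and the e7 and e6 ranges overlapped each other.

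*Bmp6*, too, was highest in sinusoidal clusters. Its levels were 151 and 312 CPM in e3, 108 and 170 in e8, 93.5 and 155 in e5, 63.4 and 27.2 in e2, 28.9 and 129 in e6 and 16.4 and 10.9 in e1. In e7 the pools stood at 0.508 and 85.1 and in e4 at 0.624 and 63.4, so that the male pool was near 0 in both. The female e7 value rested on few cells, since 3 of 79 held 20 counts or more and 20 held any.

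**Figure D3:**
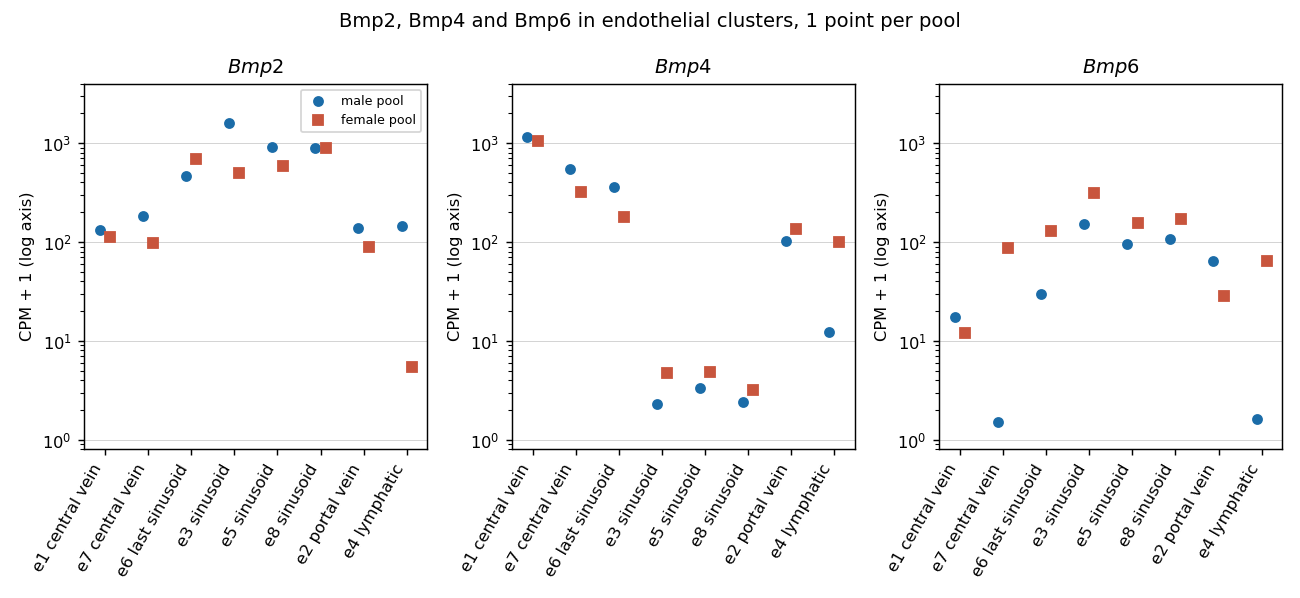
Levels of *Bmp2*, *Bmp4* and *Bmp6* in the 8 endothelial clusters, ordered from central vein to portal vein and lymphatic cells. Each point is the CPM + 1 (log axis) of the summed cells of 1 pool, circles male and squares female. *Bmp4* falls from 1154 and 1061 CPM in e1 to between 1.31 and 3.90 in e3, e5 and e8, where *Bmp2* lies between 500 and 1585.

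The plot of endothelial clusters sets the 3 ligands side by side. Of the 10 ligands, 5 had enough counts to be tested among endothelial clusters (*Bmp2*, *Bmp4*, *Bmp6*, *Gdf2* and *Gdf10*). In the contrast of the sinusoidal clusters e3, e5, e6, e7 and e8 with e1, e2 and e4, 2 were called, where 1.92% of 18321 genes were. *Bmp4* was lower there (log2 fold change -3.46, SE 0.40, edgeR adjusted p = 0.00018). The other was *Bmp2*, and since it served to name these clusters its higher value (2.48, with 2.17 in the male pool alone and 3.72 in the female pool alone) is a description and no test. *Bmp6* was not called (2.03, SE 0.88, edgeR adjusted p = 0.33), and gave 1.71 in the male and 2.61 in the female pool alone. With e7, which the authors count as central vein, moved to the other side, *Bmp4* gave -5.06 (edgeR adjusted p = 1.2e-05) and *Bmp2* 2.73.

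The step from the sinusoid towards the vein was tested with e6 and e7 against e3, e5 and e8. Only *Bmp4* was called of the 5 tested, against 0.841% of all genes, and it was higher by 7.39 on the log2 scale (SE 0.60, edgeR adjusted p = 3.5e-06), 8.30 in the male and 6.46 in the female pool alone. *Bmp2* moved by -1.43 (SE 0.61, edgeR adjusted p = 0.29). For e1 against the other 7 clusters, again *Bmp4* alone was called (1.41% of all genes). For the portal cluster e2, none of the 5 was (1.93% of all genes, 1777 of them at an unadjusted p under 0.05). *Bmp4* there gave 1.64 (SE 0.51, edgeR adjusted p = 0.13), and it was called with no filter on low counts (edgeR adjusted p = 0.012), at a minimum of 10 cells a sum (0.014), in thinned cells (0.037) and in sums per plate (0.022).

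Cells with both ligands were most frequent in e1 and e6. Taking 20 counts as detected, the limit that the study used for its gene filter, 22 of 112 e6 cells held both *Bmp2* and *Bmp4*, 58 *Bmp2* without *Bmp4*, 19 *Bmp4* without *Bmp2* and 13 neither. In e1, 31 of 152 held both, 6 *Bmp2* without *Bmp4* and 103 *Bmp4* without *Bmp2*. None of the 236 e3, 151 e5 and 155 e8 cells held *Bmp4* at this limit. In e2, 21 cells held *Bmp2*, 16 held *Bmp4* and 0 of 128 held both. *Bmp2* and *Bmp6* were found together in 82 of 236 e3 cells and in 39 of 155 e8 cells. In e3, 82 of 84 *Bmp6* cells held *Bmp2*, as did 228 of all 236 cells.

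Smaller endothelial populations were described only. The peribiliary vessel cells (PBV, 14 cells) had *Bmp2* at 596 CPM in the male and 3.56 in the female pool and *Bmp4* at 1.30 and 93.6, so no order can be read there. In LEC, the lymphatic cells, 1 of 22 cells (4.55%) held *Bmp2* at 20 counts or more, against 464 of 542 sinusoidal cells (85.6%, exact binomial 95% interval 82.4 to 88.5%). Among B cells 40.4% had at least 1 *Bmp2* count but 0 of 57 had 20, for which a floor of 3 cells is 5.26% and the exact binomial upper limit 6.27%.

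In the mesenchyme, *Gdf2* and *Bmp10* were highest in stellate cells. Promoter windows of the ligands were taken from RefSeq (GRCm38.p6), where 7 of the 10 genes matched: *Bmp4*, *Bmp5*, *Bmp6*, *Bmp10*, *Gdf2*, *Gdf10* and *Gdf15*. Of *Bmp2*, *Bmp7* and *Gdf6*, no window is shown. *Gdf10* and *Gdf2* are neighbours on chromosome 14, at chr14:33923587-33937983 and chr14:33941039-33947198 on the plus strand, with 3055 bases between them. *Bmp10* lies on chromosome 6, at chr6:87428994-87437677, also on the plus strand. The 250 bases before the start of these 3 genes are shown because neighbours *Gdf10* and *Gdf2* had different patterns among mesenchymal cells, whereas *Gdf2* and *Bmp10*, which lie apart, peaked in the same cells. Capitals mark AGATAA, a form of the site that GATA factors bind, on either strand, and GGGCGG (written CCGCCC where it reads on the other strand), the core of the GC box.
*Gdf2* (chr14:33940789-33941038): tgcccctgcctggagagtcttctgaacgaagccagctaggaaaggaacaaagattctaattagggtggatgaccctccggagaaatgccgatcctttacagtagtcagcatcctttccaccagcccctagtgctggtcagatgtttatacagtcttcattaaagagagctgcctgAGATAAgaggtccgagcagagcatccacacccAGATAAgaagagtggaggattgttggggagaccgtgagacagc
*Bmp10* (chr6:87428744-87428993): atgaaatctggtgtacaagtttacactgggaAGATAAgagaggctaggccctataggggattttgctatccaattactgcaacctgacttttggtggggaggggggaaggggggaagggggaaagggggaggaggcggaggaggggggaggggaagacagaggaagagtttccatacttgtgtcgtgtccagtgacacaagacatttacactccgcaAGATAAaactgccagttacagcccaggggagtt
*Gdf10* (chr14:33923337-33923586): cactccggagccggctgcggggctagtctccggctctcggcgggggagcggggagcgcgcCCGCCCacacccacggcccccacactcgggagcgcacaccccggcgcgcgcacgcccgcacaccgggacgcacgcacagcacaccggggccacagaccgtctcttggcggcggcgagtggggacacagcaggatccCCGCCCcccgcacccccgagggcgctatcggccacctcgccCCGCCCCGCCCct

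The windows of *Gdf2* and *Bmp10* each held AGATAA 2 times on the forward strand, starting 75 and 43 bases before the *Gdf2* start and 219 and 33 bases before the *Bmp10* start, and neither held GGGCGG. Among 32817 mouse promoter windows of this length, 9.99% held AGATAA at least once on either strand and 0.939% at least 2 times. The *Gdf10* window held no AGATAA but GGGCGG 4 times, on the reverse strand, with overlapping matches 13 and 8 bases before the start. Of all windows, whatever their G and C content, 4.09% held it at least 4 times on either strand. The G and C content of the *Gdf10* window was 78.8%, against 50.4% for *Gdf2*, 52% for *Bmp10* and a median of 52.4% over all windows. None of the other windows of the 7 genes held AGATAA. These matches describe letters, in genes picked for their patterns, and say nothing of which factor binds. The shares over all windows are background and no test of a link between promoter and pattern.

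*Gdf2*, whose product acts on the vascular endothelium, stood at 2042 CPM in the male pool (68 cells) and 2297 in the female pool (4 cells) of cluster m7c, which holds nearly all cells annotated HSC. It stood at 1012 and 1411 in m3c, the capsular HSC (cHSC). It stood at 385 and 249 in m5c, the cells annotated SLC, 283 and 132 in the venous smooth muscle cluster m9c and 70.6 and 50.3 in m8c, the portal vein smooth muscle. Arterial smooth muscle (artSMC) had 0.561 and 5.01 and peribiliary fibroblasts 1.88 and 3.29. The ranges of m7c, m3c, m5c and m9c did not overlap except for m5c and m9c. The 6 mesothelial cells (4 male, 2 female) had 180 and 322 CPM.

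*Bmp10* stood at 336 CPM in the male and 36.1 in the female pool of m7c, at 14.8 and 17.5 in m3c, at 12.2 and 0.132 in m5c and at 3.17 and 0 in m9c. The HSC cells held 87.3% of all *Bmp10* counts in the data (4712 of 5397) and cHSC 7.10%. In HSC 26 of 73 cells (35.6%, exact binomial 95% interval 24.8 to 47.7%) held 20 counts or more, in cHSC 3 of 113 (2.65%, 0.551 to 7.56%). The male m7c pool lay above all other pools.

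*Bmp5*, a ligand of the *Bmp6* and *Bmp7* subgroup, stood at 879 CPM in the male and 769 in the female pool of m7c. In m3c it stood at 231 and 113, in m5c at 301 and 78.8 and in m9c at 298 and 61.3, and those 3 ranges overlapped. *Gdf6*, a ligand of joints and cartilage, was highest in m5c at 300.1 and 90.3 CPM and lay at 212 and 81.7 in m9c, 152 and 88.0 in m7c and 153 and 20.8 in m3c, and all 4 ranges overlapped. In artSMC it stood at 0.140 and 0.415 CPM, and in m15c, the cells annotated elaSMC, at 0.612 and 2.0.

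*Gdf10*, a divergent family member related to *Bmp3*, was shared by stellate cells and fibroblasts. It stood at 2103 and 1643 CPM in m4c, the peribiliary fibroblasts, at 1639 and 869 in m7c and at 1212 and 479 in m3c. The portal fibroblast clusters m8 and m10, which hold male cells only, had 2575 and 1980, and m1 had 1306 and 1047. It was lower, at 395 and 152 in m5c, 22.8 and 77.2 in artSMC and 7.34 and 25.5 in m15c. Of the *Wt1*-positive fibroblasts, cluster m11c had 1059 and 1601 CPM and m12c 154 and 64.1, with no overlap. *Bmp4* was broad, between 62.9 and 564 CPM in every pool of all mesenchymal cell types named by the authors except elaSMC (3.41 and 73.9) and artSMC (24.7 and 24.5).

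**Figure D4:**
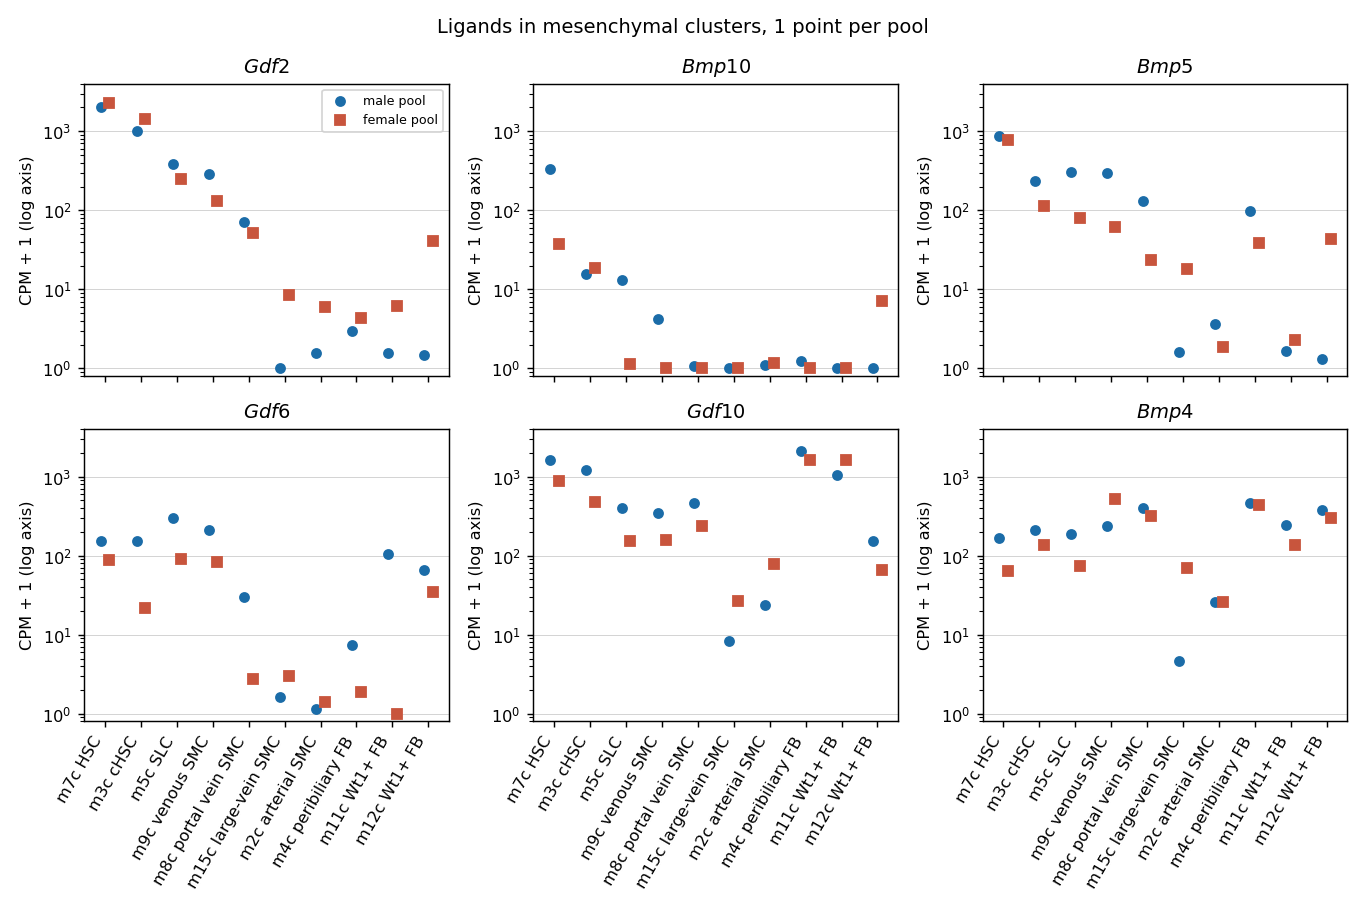
Levels of 6 ligand genes in 10 mesenchymal clusters of the finer clustering, stellate cells at the left, smooth muscle (SMC) in the middle and fibroblasts (FB) at the right. Each point is the CPM + 1 (log axis) of the summed cells of 1 pool, circles male and squares female, and m15c holds the cells annotated elaSMC. *Gdf2* and *Bmp10* fall from m7c (2042 and 336 CPM in the male pool) towards the right. *Gdf10* is high in m7c (1639) and in m4c, the first fibroblast cluster (2103), but lower in m12c at the right end. *Bmp4* is low only in m15c and m2c.

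The plot of mesenchymal clusters sets these shapes side by side. Cluster m3, which joins HSC and cHSC, was tested against the other 9 clusters, with m8 and m10 entering by their male pool alone. Of the 10 ligands 3 were called, all higher, where 2.47% of 22365 genes were in either direction. *Bmp10* was higher by 8.90 on the log2 scale (SE 1.39, edgeR adjusted p = 0.0036), *Gdf2* by 6.97 (SE 0.77, edgeR adjusted p = 0.00027) and *Bmp5* by 3.24 (SE 0.83, edgeR adjusted p = 0.048). The *Bmp5* call was lost with the pools as a block (edgeR adjusted p = 0.11). In the male and the female pools alone *Bmp10* gave 10.73 and 8.47, *Gdf2* 8.90 and 6.48 and *Bmp5* 4.37 and 3.54. On simulated data, where an adjusted p below 0.05 alone made a call, this comparison called about as many unchanged genes as changed ones. Far more genes were unchanged than changed there. *Gdf6* gave 2.64 (SE 0.77, edgeR adjusted p = 0.081), *Bmp7* 4.84 (SE 1.31, edgeR adjusted p = 0.062) and *Gdf10* 1.09 (SE 0.41, edgeR adjusted p = 0.21).

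Mural clusters m2, m5, m6 and m7 against the fibroblast clusters gave 2 calls (3.21% of all genes): *Gdf10* was lower in mural cells (log2 fold change -3.97, SE 0.34, edgeR adjusted p = 1.1e-06), as was *Bmp4* (-2.19, SE 0.40, edgeR adjusted p = 0.0035). The *Gdf10* value was -4.27 in the male and -3.19 in the female pool alone. *Bmp4* was -3.08 and -1.69, and in sums per plate it gave -1.83 and was not called (edgeR adjusted p = 0.084).

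No ligand was called between the fibroblast clusters. For the peribiliary cluster m4 against m1, m8, m9 and m10, edgeR called 0 of the 10 ligands and 0.0626% of all genes, with 1404 genes at an unadjusted p under 0.05. *Bmp2* stood at 181 and 206 CPM in m4 and at most 37.3 in any pool of the other 4 clusters, yet its log2 fold change of 3.68 (SE 0.77) missed the threshold (edgeR adjusted p = 0.13), and DESeq2 called 3 ligands. For m9, the *Wt1*-positive and mesothelial cluster, edgeR also called 0 (0.286% of all genes, 2033 at an unadjusted p under 0.05), and *Bmp2*, at 0.459 and 3.42 CPM, gave -4.63 (SE 1.08, edgeR adjusted p = 0.083). DESeq2 called 1.

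For m7c against m3c, edgeR called 0 of the 10 ligands and 0.0234% of all genes, with 548 at an unadjusted p under 0.05. The 4 female m7c cells were too few for a sum, so m7c entered by the male pool alone, assumed to vary like the other clusters. *Bmp10* gave 4.41 with an SE of 2.65, *Bmp5* 2.37 with 1.77 and *Gdf2* 0.78 with 1.52, so differences of the size seen in the levels were not detectable with these sums.

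Ligands were also counted in each cell. Counting ligands at 20 counts or more, HSC cells held a mean of 3.48 of the 10, 90.4% of them held at least 2 and 72.6% at least 3. Of the cHSC 78.8% held at least 2, of peribiliary fibroblasts 81.6% and of portal fibroblasts 59.2%. In sinusoidal endothelium 60.9% held 1 and 26.75% held 2. None of the 57 B cells held a ligand at this limit, and neither did 93.6% of Kupffer cells and 92.6% of hepatocytes. In m7c, *Gdf2* and *Bmp5* were found together in 49 of 72 cells (68.1%), *Gdf2* and *Gdf10* in 53 (73.6%) and *Gdf2* and *Bmp10* in 22 (30.6%). In m3c *Gdf2* and *Bmp5* were together in 29 of 113 cells (25.7%) and *Gdf2* and *Bmp10* in 3 (2.65%). Within m7c, *Bmp10* was found in 36.7% of cells with *Gdf2* and 33.3% of the 12 cells without it.

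The parenchymal ligands were carried by few cells. *Bmp7*, a ligand of epithelia, stood at 46.7 CPM in the male and 17.1 in the female cholangiocytes, cluster p2, where 21 of 194 cells (10.8%, exact binomial 95% interval 6.83 to 16.1%) held 20 counts or more. The hepatocyte clusters hold nearly only male cells. There *Bmp7* stood at 34.3 CPM in p5, where 3 of 57 cells held 20 counts or more, at 15.2 in p3, at 0.835 in p4 and at 0.431 in p1. In monocytes it stood at 25.3 CPM in the male pool, with 1 of 55 cells at 20 counts or more, and in male peribiliary fibroblasts at 20.9 CPM, with 5 of 89. *Bmp6* stood at 22.8 and 38.0 CPM in p2, above 12.2 in p1, 4.33 in p4, 3.45 in p5 and 0 in p3.

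Cholangiocytes against hepatocytes (p2 against p1, p3, p4 and p5) left 7 ligands to test, and 2 were called where 37.3% of 16694 genes were. *Bmp6* was higher by 4.12 on the log2 scale (SE 1.28, edgeR adjusted p = 0.014) and *Bmp7* by 2.37 (SE 0.87, edgeR adjusted p = 0.036). The median of all genes was itself 1.38 in this contrast, and relative to it the differences were 2.74 and 0.99. Both calls were lost in sums per plate (edgeR adjusted p = 0.26 and 0.39), and the spread of this fit came from the 2 pools of p2 alone. Cholangiocytes carried the 6 hepatocyte markers at a summed 4490 CPM, whose part in these values was not tested. In the other comparisons the median of all genes lay between -0.27 (parenchymal class) and 0.20 (e1).

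*Gdf15*, the stress hormone, was low outside the endothelium and lowest within it. It stood at 40.4 CPM in the male and 26.4 in the female pool of the immune class, 26.9 and 74.4 in the parenchymal, 12.8 and 9.40 in the mesenchymal and 0.115 and 0.0633 in the endothelial class, whose pools lay below those of every other class. Monocytes had 103 CPM (male), the Kupffer subset sKC 79.5 (male), Kupffer cells 12.5 and 26.4, cholangiocytes 29.3 and 76.3, artSMC 40.2 and 20.2 and B cells 0. Among hepatocyte clusters it ran from 0.731 CPM in p5 to 47.6 in p1. Few cells carried it, 23 of 194 cholangiocytes, 16 of 469 Kupffer cells and 5 of 57 monocytes at 20 counts or more. A list of 10 immediate early and stress genes, which dissociation can raise, summed to 8267 CPM in Cholangiocytes, 5729 in Monocytes, 13662 in artSMC, 1803 in KupfferCells and 353 in Hepatocytes, and its part in the *Gdf15* levels was not tested.

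The share of cells with low counts of a ligand differed between plates. Not all 22 plates were compared, and each plate compared held at least 11 cells of the other classes. Among those cells, at least 1 *Gdf10* count was found in 0 to 1.92% (median 0) on the 10 compared plates without a mesenchymal cell. On the 5 compared plates with 10 or more mesenchymal cells the range was 19.8 to 60.3% (median 38.5%). At 20 counts the share stayed at or below 1.72% on all of these plates. *Gdf2* ran from 0 to 3.97% on the first set and from 0 to 30.8% on the second. *Bmp2* outside the endothelium ran from 23.1 to 45.1% on the 3 compared plates without an endothelial cell and from 15.9 to 72.1% on the 7 with 10 or more. At 20 counts it ran from 0 to 17.9% and from 0 to 8.96%. Some mesenchymal cells carry *Bmp2* themselves, at 51.8 CPM per kb in peribiliary fibroblasts, so a split cannot be read for it. *Bmp6* had medians of 0.997 and 9.88% on those plates, and *Bmp5* had 2.30 and 7.41% on plates without and with mesenchymal cells. The cause of these counts was not tested. In artSMC, itself mesenchymal, 88.2% of cells had a *Gdf10* count and 4.64% had 20. Shares at 1 count are therefore not read as expression here.

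**Figure D5:**
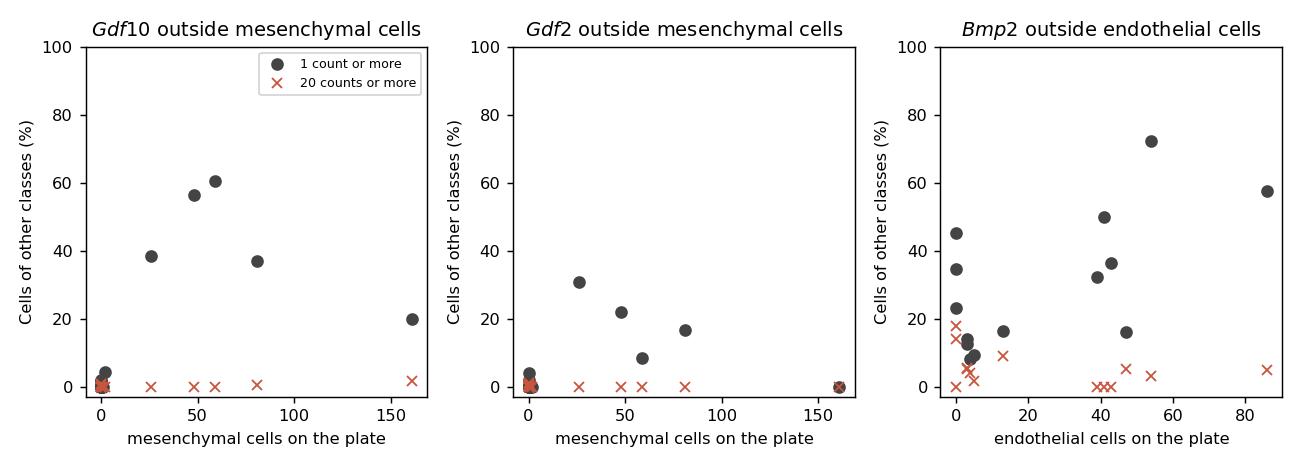
Share of cells of other classes with a ligand count (vertical axis, percent) against the number of cells of the ligand's own class on the same plate (horizontal axis). Each point is 1 of the plates compared, not all plates, with dots for 1 count or more and crosses for 20 or more. *Gdf10* dots rise from at most 1.92% on plates with no mesenchymal cell to between 19.8 and 60.3% on plates with 10 or more, while crosses stay at or below 1.72% on those plates.

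The plot of low counts by plate concerns the small values only. The class levels of *Gdf10* in immune cells (8.29 and 3.28 CPM) and in endothelial cells (0.832 and 4.50 CPM) are small beside the 1303 and 494 CPM of mesenchymal cells.

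The receptors and targets of the pathway were measured in the same fits. The share of all genes called, in either direction, was 8.28% in endothelial, 11.8% in mesenchymal, 13.2% in immune and 12.4% in parenchymal cells, against which the counts of each list are to be read. Of 14 receptor and co-receptor genes, 13 were tested. In endothelial cells 2 were higher and 1 lower (median log2 fold change of the list 0.11, of all genes 0.04), in mesenchymal cells 5 higher and 0 lower (median 1.03, all genes 0.02), in immune cells 1 higher and 3 lower (-1.57, all genes 0.09) and in parenchymal cells 4 higher and 2 lower (-0.91, all genes -0.27). *Bmpr1a*, a type I receptor of *Bmp2* and *Bmp4*, was lower in endothelial cells by a log2 fold change of -5.07 (SE 0.86, edgeR adjusted p = 0.011). *Rgma*, a co-receptor, was higher in mesenchymal cells (5.72, SE 0.87, edgeR adjusted p = 0.0044). *Bmpr1b* was at 0 counts in the other 3 classes and at 2.03 and 0.729 CPM in mesenchymal cells. *Hjv*, the hepatocyte co-receptor for hepcidin, was higher in parenchymal cells (5.76, SE 1.32, edgeR adjusted p = 0.025) and *Neo1* lower in immune cells (-5.83, SE 1.15, edgeR adjusted p = 0.013).

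The receptors of *Gdf2* and *Bmp10*, *Acvrl1* and *Eng*, were picked for mention after their values were seen. *Eng* stood at 3411 and 3885 CPM in endothelial cells, at 1282 and 905 in mesenchymal cells and at 110 CPM or less in the others. *Acvrl1* stood at 78.7 and 188 CPM in endothelial, 126 and 154 in mesenchymal and 138 and 351 in immune cells, with overlapping ranges, and at 14.4 and 14.1 in parenchymal cells. Within the mesenchyme *Eng* was the receptor called higher in m3 (1.86, SE 0.18, edgeR adjusted p = 0.00013), beside *Gdf2* and *Bmp10*. *Acvrl1* was lower in mural cells than in fibroblasts (-1.91, SE 0.44, edgeR adjusted p = 0.021).

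A list of 5 genes held the transducers *Smad1*, *Smad4*, *Smad5* and *Smad9*, none of which was called in a class, and *Tmprss6*, the hepatocyte protease that restrains hepcidin. *Tmprss6* was lower in endothelial and in mesenchymal cells (list medians 0.97 and 0.08, and -0.62 in parenchymal cells) and higher in parenchymal cells by 6.54 (SE 0.40, edgeR adjusted p = 0.00022). In immune cells 0 of the 5 were called by edgeR (median -0.31), and 6505 of 24046 genes had an unadjusted p under 0.05 there. *Hamp* itself was higher in parenchymal cells by 4.20 (SE 0.75, edgeR adjusted p = 0.0093), at 38.6 and 17.7 CPM, with 148 in p1 and in p3, 70.3 in p4 and 34.1 in p5 (male pools), and 6.31 and 4.81 in p2.

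Among the 10 targets and feedback genes, 3 were higher in endothelial cells (list median 0.99), 2 in mesenchymal cells (0.16), 2 were lower in immune cells (-0.62) and 2 were higher and 3 lower in parenchymal cells (0.27). *Smad6*, an inhibitor induced by BMP signals, was higher in endothelial cells by 2.77 (SE 0.46, edgeR adjusted p = 0.011) and lower in parenchymal cells (-3.03, SE 0.62, edgeR adjusted p = 0.017). *Id4* was higher in endothelial cells (4.72, SE 0.88, edgeR adjusted p = 0.017). *Atoh8*, a transcription factor that BMP signals induce, was higher in parenchymal (3.66, SE 0.59, edgeR adjusted p = 0.0063) and mesenchymal cells (2.46, SE 0.59, edgeR adjusted p = 0.032) and lower in immune cells (-6.13, SE 0.96, edgeR adjusted p = 0.0051). *Id1* was called in no class, with values from -0.60 to 0.87, and neither was *Smad7*, from -1.04 to 1.67. Within the endothelium, 0 of the 10 targets were called by edgeR between sinusoidal clusters and e1, e2 and e4, against 1.92% of all genes, 2376 of which had an unadjusted p under 0.05. There *Smad6* gave 1.21 (edgeR adjusted p = 0.31) and *Id1* -0.54 (edgeR adjusted p = 0.65). *Atoh8* was higher in m3 (2.16, SE 0.54, edgeR adjusted p = 0.045). In cholangiocytes *Id1* (3.58, SE 0.71, edgeR adjusted p = 0.00036) and *Smad7* (5.21, SE 1.01, edgeR adjusted p = 0.00028) were higher and *Hamp* was lower (-4.69, SE 0.84, edgeR adjusted p = 0.00012) than in hepatocytes, against a median of all genes of 1.38.

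Of 14 other BMP, GDF and activin genes, 10 were tested: 1 was higher and 1 lower in endothelial cells, 3 higher in mesenchymal cells, 1 higher and 2 lower in immune cells and 1 higher in parenchymal cells. *Inhba*, an activin subunit, was higher in parenchymal cells (6.69, SE 0.64, edgeR adjusted p = 0.00073) and lower in endothelial cells (-5.54, SE 0.94, edgeR adjusted p = 0.011), *Gdf3* was higher in immune cells (7.43, SE 0.86, edgeR adjusted p = 0.0014) and *Bmp3* in mesenchymal cells (4.89, SE 1.04, edgeR adjusted p = 0.018). Of the 5 processing proteases, 3 were higher in mesenchymal cells (list median 4.18), 1 was lower in immune cells and 1 higher in parenchymal cells. *Pcsk5*, a proprotein convertase, was lower in the sinusoidal clusters (-6.08, SE 1.28, edgeR adjusted p = 0.02) and higher in e1 (6.15, SE 1.05, edgeR adjusted p = 0.0076) and in e2 (7.41, SE 1.06, edgeR adjusted p = 0.0017). *Bmp1*, which trims matrix proteins and BMP antagonists, was lower in the sinusoidal clusters too (-5.39, SE 1.12, edgeR adjusted p = 0.017).

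The genes most like each ligand were sought by Pearson's r of log2(CPM + 1) over the 30 clusters with both pools joined, among 16592 genes that reached 10 CPM in at least 1 cluster. These correlations describe clusters that share libraries, and no p is given. *Bmp2* was most like *Col13a1* (r = 0.907), *Arhgap23* (0.892) and *Plxnd1* (0.890), *Bmp6* like *Bik* (0.885), *Afap1l1* (0.853) and *Podxl* (0.853), and *Bmp4* like *Rbms3* (0.922), *Eln* (0.914) and *Fmo2* (0.913). *Gdf2* was most like *Adamts13* (0.877), the protease that cleaves von Willebrand factor, *Lhx2* (0.846) and *Nr1h5* (0.845), and *Bmp10* like *Ptprt* (0.959), *Nr1h5* (0.946) and *Gm5622* (0.909). *Nr1h5* was on both lists. By Spearman's rho the 3 genes named for *Bmp10* gave only 0.242, 0.410 and 0.489 with it, and those for *Gdf2* 0.674, 0.639 and 0.614. *Ptprt* and *Gm5622* reached at most 17.13 and 11.44 CPM, both in m3. *Gdf10* was most like *Pdgfra* (0.970), whose reporter and protein served to sort mesenchymal cells, *Col5a1* (0.963) and *Lama2* (0.961). *Gdf6* was most like *Gm9947* (0.964), *Rbm46* (0.957) and *Msc* (0.954).

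*Bmp5* was most like *Gm26903* (r = 0.991), *Gm13372* (0.948) and X5330439B14Rik (0.948), with Spearman's rho of 0.927, 0.776 and 0.643. *Gm26903* is annotated antisense to *Bmp5* and overlaps it at 1 end (GENCODE, GRCm38), and since the library kit does not mark strand, reads within the shared stretch cannot be told apart. *Bmp4* overlaps *Gm15217* and the antisense *Gm15222*, and *Bmp6* overlaps *Txndc5* and the antisense 4930579J19Rik, whose reads could be mixed in the same way. The other 7 ligands overlap no annotated gene. The look-alikes of *Bmp7* (*D630024D03Rik*, 0.763, *Smim6*, 0.753, and *Cldn2*, 0.744) and of *Gdf15* (*Ppfibp2*, 0.761, *Haus8*, 0.745, and *Mier2*, 0.733) had a lower Pearson's r than those of every other ligand. Among the ligands themselves, *Gdf10* and *Gdf6* were most alike (0.89), followed by *Bmp5* with *Gdf10* and with *Gdf6* (0.88 each), *Gdf2* with *Gdf6* (0.83) and *Gdf2* with *Bmp10* (0.78), while *Bmp2* and *Bmp4* had an r of 0.34.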

How the data were processed

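Single cells of adult mouse liver were sequenced with Smart-seq2. Per the study's methods and the submitters' processing notes, the authors aligned reads to GRCm38 (mm10) and counted them per gene with featureCounts, with no molecular identifiers, and limited doublets by scatter gates and an upper limit on expressed genes. The deposited values were raw counts per gene and cell. All 3491 cells and 46517 genes were used, 92 spike-ins were left out, and 0 columns lacked a sample. The authors' annotations and clusters were kept.

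Cells of a class or cluster were added up within each pool (at least 5 cells), and the sums were tested with edgeR 4.0.16 in R 4.3.3 (TMM, filterByExpr, quasi-likelihood F test, Benjamini-Hochberg adjustment), in 14 comparisons. The SE was the absolute log2 fold change divided by the square root of F. Clusters of a class shared 1 spread. Levels are CPM of summed counts, and intervals are exact binomial at 95%. Pool totals ran from 6399550 to 218419420 counts. On simulated data, at an adjusted p below 0.05 alone, the test missed nearly all smaller changes, many larger ones and every one in m7c against m3c. In m3 it called about as many unchanged genes as changed ones, out of far more unchanged genes. Alternatives were DESeq2 1.42.0, RLE normalization, no filter, 3 or 10 cells a sum, cells thinned to 50000 counts (13 cells were too shallow), sums per plate, each pool alone and the pool as a block. Same-numbered sums of a class come from the same pool of mice, and their deviations correlated by -0.04 to 0.16 across fits.

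The 10 ligands and the pathway lists were chosen with earlier results of these data known. Beside all 10 ligands, the text names the pathway genes called, at most the 3 with the largest change per comparison, *Hamp*, *Id1*, *Smad6*, *Smad7* and *Atoh8* at any value, and the 3 genes most alike per ligand.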

Additional observations from a re-analysis of the deposited data

Results flagged for a closer look

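*Bmp6* in portal vein cluster e2, against the other 7 endothelial clusters, moved in opposite directions in the pools, by a log2 difference of at least 1 in each and with at least 20 CPM on the higher side. The log2 difference was 1.98 in the male pool alone and -1.89 in the female pool alone. With both pools it was -0.60 and was not called (edgeR adjusted p = 1.0). The difference between the pools was not tested, since each is 1 sample. Outside these limits other ligands that were not called also differed in sign between the male and the female pool, among them *Bmp7* in m4 (8.12 and -5.24), *Bmp10* in m9 (-4.10 and 7.98) and, in immune cells, *Gdf6* (2.18 and -5.89) and *Gdf2* (-0.91 and 6.61).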

How the results depend on the processing

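Of the 29 ligand calls, 29 kept their direction and their side of the threshold under RLE normalization, 29 with no filter and 29 with 3 cells a sum. The number was 28 under DESeq2, 28 at 10 cells a sum, 28 in thinned cells, 25 of the 27 that could be tested with the pools as a replicate block and 24 of 28 in sums per plate. The calls lost were *Bmp5* in m3 (DESeq2, 10 cells, block), *Bmp5* in the endothelial class (thinned cells and block), and, per plate, *Bmp2* in immune cells, *Bmp4* in mural cells and *Bmp6* and *Bmp7* in p2. The cause was not tested. In the block fits p2 had no residual degrees of freedom.

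Alternatives also called ligands that the report does not, 23 with no filter, 13 under DESeq2, 12 per plate, 11 in thinned cells, 4 under RLE, 3 at 10 cells, 1 with the block and 1 without Cont. The number of ligands called moved most in these comparisons. For the endothelial class it was 9 under DESeq2, with no filter and per plate (5 in the report). For immune cells it was 5 with no filter and per plate (3), and for parenchymal cells 7 under DESeq2 and 8 with no filter (4). For e2 it was 2 with no filter and 1 at 10 cells, in thinned cells and per plate (0). For e6 and e7 it was 2 with no filter, at 10 cells and per plate (1). For m3 it was 6 with no filter and 5 per plate (3), and for mural cells 4 with no filter, 4 in thinned cells and 1 per plate (2). For m4 it was 3 under DESeq2 and 1 with no filter and in thinned cells (0). For m9 it was 1 under DESeq2 and at 10 cells, 3 with no filter and 2 in thinned cells (0). For p2 it was 0 per plate (2). Ranked by Spearman's rho, the 3 genes most alike shared 2 with the report for *Bmp2*, 1 each for *Bmp4*, *Bmp5* and *Gdf15*, and 0 for the other ligands. Each pool alone gives a value with no test, and no called ligand changed sign there, though the 2 calls in p2 have no value with the female pool alone.

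No call changed sign in a tested alternative, but values that were not called did. In the class comparisons they were *Bmp7* in mesenchymal cells (0.02 with no filter, 0.15 with the block) and in immune cells (-0.17 in thinned cells), and in immune cells *Gdf2* (-0.75 per plate) and *Gdf6*, from 1.63 to -3.55 without Cont and to -3.38 per plate, where it passed the test as lower. In sinusoidal clusters they were *Gdf2* (-0.06 with the block) and *Gdf10* (-1.15 with e7 on the other side), in e2 *Bmp6* (0.31 per plate, 0.06 with the block), and in e6 and e7 *Gdf2* (-0.04 under RLE, -0.03 at 10 cells). In mural cells they were *Bmp10* (0.12 under DESeq2, 0.06 in thinned cells, 0.45 per plate), *Bmp7* (-0.08 per plate, -1.23 without m8 and m10) and *Gdf15* (-0.04 at 10 cells). In m7c they were *Bmp4* (0.03 with no filter and at 10 cells, 0.13 in thinned cells) and *Bmp6* (1.90 at 3 cells, 1.45 in thinned cells, 1.13 with the block), and in p2 *Bmp2* (0.02 under RLE, 0.04 under DESeq2, 1.02 in thinned cells, 1.94 per plate). The cause was not tested.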
